A study of Mus musculus with 23 samples.

Results

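The genes described here are 10 genes of the leukotriene and prostaglandin pathway, chosen by symbol from the 35322 genes listed for mouse lung RNA-Seq: Alox5, Alox5ap, Ltc4s, Alox15, Ptgs1, Ptgs2, Hpgds, Ptgds, Cysltr1 and Ptgdr2. All 10 were listed, and 9 of them had at least 0.5 RPM (reads scaled to the library's total) in at least 4 of the 23 libraries and were tested among 16795 genes; Ptgds was the exception. The libraries came from Balb/c offspring that the methods give as female and 13 weeks of age, of dams given intranasal PM2.5 (fine particulate matter) or saline through mating, gestation and weaning. Sham (n = 7) and PM (n = 7) were the saline-challenged offspring of saline and PM2.5 dams. Sham-OVA (n = 5) and PM-OVA (n = 4) were the corresponding offspring sensitised to and challenged with ovalbumin (OVA), a model of allergic airway disease (AAD). The labels name PBS and the methods nebulised saline as the control challenge, and lungs were collected after methacholine lung function testing. The labels give the tissue as Lung (RML), whereas the methods give the right lower lobe.

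Leukotrienes and prostaglandins are lipid mediators made from arachidonic acid, which phospholipases A2 release from membranes. In the leukotriene branch, 5-lipoxygenase (Alox5), helped by its activating protein (Alox5ap), makes leukotriene A4, which leukotriene C4 synthase (Ltc4s) conjugates with glutathione to start the cysteinyl leukotrienes, strong constrictors of airway smooth muscle that act through Cysltr1. In the prostaglandin branch, the cyclooxygenases Ptgs1 and Ptgs2 make prostaglandin H2, from which the synthases Hpgds and Ptgds make prostaglandin D2, the ligand of the receptors Ptgdr and Ptgdr2. The library preparation captured transcripts and not lipids, so mediator levels were not measured.

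OVA challenge was accompanied by higher expression of Alox15, Alox5ap and Ltc4s and by lower expression of Ptgdr2 in the offspring of both saline and PM2.5 dams, although the call of Ltc4s in PM offspring was lost when trends with transcript length and GC content were removed and when the 3 shallowest OVA libraries were left out. The cyclooxygenases, Alox5 and the prostaglandin D synthase Hpgds did not pass the main test in either cohort, although the cyclooxygenases and Alox5 passed under some alternatives. No member passed it between the PM and Sham groups, with or without OVA.

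In Sham-OVA against Sham, 3 of the 9 tested members were higher and 1 was lower at an adjusted p under 0.05 (limma on log2(RPM + 0.5) with Benjamini-Hochberg adjustment over all genes tested), beside 20.6% of all genes higher and 47.5% lower. In PM-OVA against PM, 3 members were higher and 2 lower, beside 20.1% and 45.2% of all genes. The median log2 fold change was 0.24 over the tested members and -0.48 over all genes in Sham offspring, and -0.08 and -0.43 in PM offspring. Under the stricter threshold that the study used with DESeq2 (adjusted p below 0.000001, log2 fold change beyond 1 in size), limma called 0 members in either cohort, beside 1.98% of genes higher and 2.53% lower in Sham offspring and 0.262% and 0.0238% in PM offspring. DESeq2 on the recovered reads called Alox5ap, Ltc4s and Alox15 higher in Sham offspring, beside 13.7% of genes higher and 15% lower, and Alox5ap in PM offspring, beside 10.5% and 6.25%. The per-million scaling moved the centre of all genes below 0: with median-of-ratios scaling the medians were -0.17 and -0.13, and the calls over all genes went from 3453 higher and 7978 lower to 4904 and 6407 in Sham offspring and from 3379 and 7589 to 4862 and 6003 in PM offspring.

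**Figure D1:**
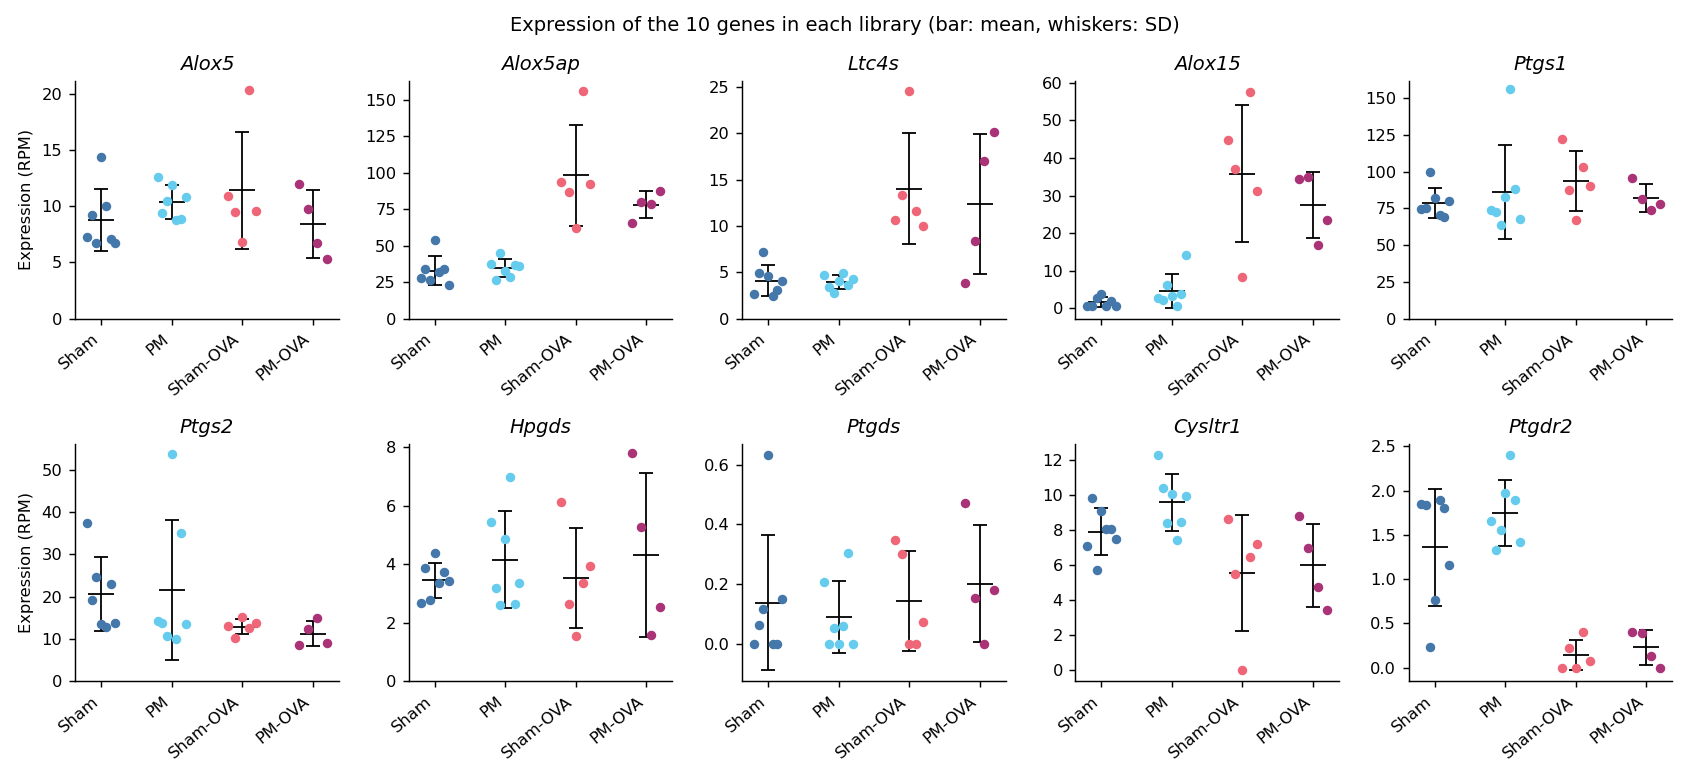
Expression in RPM of the 10 genes in each of the 23 libraries by group, with the mean (bar) and SD (whiskers); each panel has its own linear axis. The Alox15 and Alox5ap values of the OVA groups all lie above those of the saline group of the same cohort, and those of Ptgdr2 are at or below 0.403 RPM with OVA.

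The OVA libraries differed from the saline libraries in ways that touched several members. The saline libraries held 13089691 to 17393579 reads on genes, the Sham-OVA libraries 2298645 to 12185451 and the PM-OVA libraries 4324326 to 12355561, and 1 read was worth 0.311 RPM in Sham-OVA replicate 3, 0.133 in PM-OVA replicate 3 and 0.182 in PM-OVA replicate 4. The slope of log2 expression, taken relative to each gene's mean over the 23 libraries, per doubling of transcript length was 0.05 to 0.25 in Sham and 0.14 to 0.23 in PM, compared with -0.38 to -0.22 in Sham-OVA and -0.36 to -0.05 in PM-OVA, so short transcripts were relatively higher in every OVA library. This slope separated the OVA libraries from the saline libraries, and the effect of OVA and of the slope cannot be told apart from the groups alone. One Sham library, replicate 1, held 0.289 RPM of the female-specific transcript Xist and 54.0 RPM of the Y-linked Eif2s3y, against the female sex that the methods give. Without it the calls of the members in Sham-OVA against Sham were 3 higher and 1 lower, as with it. In these bulk samples, a change in the share of a cell type and a change in RNA per cell cannot be told apart. The labels number the replicates but do not say whether offspring share a dam, so the p-values measure the spread between these samples.

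Alox15 encodes the 12/15-lipoxygenase, which oxygenates arachidonic acid at other carbons than Alox5 does and is abundant in eosinophils and some macrophages. It showed the largest difference of the members. Its level in Sham was 0.577, 0.697, 2.84, 3.87, 0.725, 1.98 and 0.602 RPM in replicates 1 to 7, and in Sham-OVA it was 44.9, 37.0, 8.39, 57.6 and 31.1 RPM in replicates 1 to 5. Every Sham-OVA library was above every Sham library, and the shallow replicate 3 was the lowest of its group. In PM the level was 2.61, 2.20, 6.28, 3.16, 0.469, 3.73 and 14.2 RPM, and in PM-OVA it was 34.5, 35.01, 16.9 and 23.4 RPM. The groups again did not overlap, although PM replicate 7 came close to PM-OVA replicate 3. The log2 fold change was 4.09 ± 0.47 (SE) in Sham offspring, with an adjusted p of 4.03e-06 by limma. In PM offspring it was 2.80 ± 0.56 (SE), with an adjusted p of 9.27e-04 by limma.

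Alox15 shares a family with Alox12e, a 12-lipoxygenase gene whose reads could be split with its paralogs, and Alox12e was higher with OVA too. It had 1 read in all over the 7 Sham libraries and 13 over the 7 PM libraries, and 2.99 to 21.7 RPM in Sham-OVA and 2.96 to 15.4 RPM in PM-OVA. Its log2 fold change was 3.71 ± 0.35 (SE) in Sham offspring and 3.60 ± 0.42 in PM offspring, on a scale with a pseudocount of 0.5 that understates the change of genes close to 0. It entered the tests only because of the OVA libraries, with 9 OVA and 1 saline library at 0.5 RPM or more. With no filter, among 23487 genes, the adjusted p-values were 1.25e-05 and 3.33e-04 by limma. Alox12, another lipoxygenase gene, went the other way. Its log2 fold change was -1.12 ± 0.27 (SE, adjusted p = 0.00218 by limma) in Sham offspring and -1.15 ± 0.34 (adjusted p = 0.00999) in PM offspring. Aloxe3 passed in neither cohort (adjusted p = 0.938 and 0.0933 by limma).

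Alox5ap encodes the membrane protein that presents arachidonic acid to 5-lipoxygenase. Its level was 27.5, 33.9, 26.6, 53.8, 31.7, 33.8 and 22.9 RPM in Sham and 93.4, 86.6, 62.1, 156 and 92.2 RPM in Sham-OVA. In PM it was 37.5, 26.8, 44.9, 32.6, 28.4, 36.9 and 35.8 RPM, and in PM-OVA 65.4, 80.0, 78.3 and 87.7 RPM. All 9 OVA libraries were above all 14 saline libraries. The log2 fold change was 1.54 ± 0.23 (SE) in Sham offspring and 1.166 ± 0.15 in PM offspring, with adjusted p-values of 3.57e-05 and 9.90e-05 by limma. Once the trends with transcript length and GC content had been taken out of each library (a step added with the data in view), the values were 0.92 (adjusted p = 0.00279) and 0.55 (adjusted p = 0.00497). The antisense gene Gm19719, which shares 189 exonic bases with Alox5ap, did not exceed 0.579 RPM in any library.

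Alox5 itself, the enzyme that Alox5ap serves, ranged from 6.73 to 14.4 RPM in Sham, from 8.80 to 12.6 in PM, from 6.84 to 20.4 in Sham-OVA and from 5.27 to 12.0 in PM-OVA, and all 4 groups overlapped. Its log2 fold change with OVA was 0.32 ± 0.26 (SE, 95% interval -0.24 to 0.87) in Sham offspring and -0.34 ± 0.22 (-0.81 to 0.13) in PM offspring, with adjusted p-values of 0.291 and 0.184 by limma. The Sham value passed under median-of-ratios scaling (0.67, adjusted p = 0.0138) and 4 other alternatives. The PM value passed as lower without PM-OVA replicate 1 (-0.52, adjusted p = 0.0340) and with array weights (-0.60, adjusted p = 0.0327). The log2 ratio of Alox5ap to Alox5 was 1.85 ± 0.18 (SD) in Sham and 3.07 ± 0.11 in Sham-OVA, and 1.68 ± 0.25 in PM and 3.19 ± 0.65 in PM-OVA. The lowest ratio with OVA, 2.40, was above the highest without it, 2.18. The longest transcript of Alox5ap has 1251 bases and that of Alox5 3576. In PM-OVA replicates 1 to 4 the ratio was 2.40, 2.97, 3.44 and 3.94, where the length slopes were -0.05, -0.25, -0.36 and -0.33. Sham-OVA replicate 3, at a slope of -0.38, had 3.09, within its group's range of 2.91 to 3.20. The part of the length slope in this ratio was not tested.

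Ltc4s encodes the synthase that commits leukotriene A4 to the cysteinyl leukotrienes. Its level was 2.66, 4.88, 7.18, 4.57, 2.40, 3.08 and 4.02 RPM in Sham and 10.6, 13.4, 24.5, 11.6 and 10.01 RPM in Sham-OVA, with no overlap. In PM it was 4.68, 3.38, 2.80, 4.08, 4.87, 3.60 and 4.33 RPM, and in PM-OVA 3.83, 8.35, 17.0 and 20.2 RPM. PM-OVA replicate 1 lay within the range of the PM libraries, and the other 3 were above it. The log2 fold change was 1.65 ± 0.28 (SE) in Sham offspring and 1.30 ± 0.36 in PM offspring, with adjusted p-values of 1.20e-04 and 0.00689 by limma. Leukotriene A4 hydrolase (Lta4h), which turns the same intermediate into leukotriene B4 instead, had log2 fold changes of 0.11 ± 0.15 (SE) and -0.16 ± 0.14, and passed in neither cohort (adjusted p = 0.521 and 0.345 by limma). The log2 ratio of Ltc4s to Lta4h was -2.01 ± 0.51 (SD) in Sham and -0.47 ± 0.74 in Sham-OVA, and -2.11 ± 0.42 in PM and -0.66 ± 0.99 in PM-OVA.

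Ltc4s has the shortest merged exons of the 10 genes, 1014 bases, and its level moved with the length slope of the libraries. The 3 OVA libraries with the steepest slopes, Sham-OVA replicate 3 (-0.38), PM-OVA replicate 3 (-0.36) and PM-OVA replicate 4 (-0.33), held the highest Ltc4s levels, 24.5, 17.0 and 20.2 RPM. PM-OVA replicate 1, with the flattest slope of the OVA libraries (-0.05), held the lowest, 3.83 RPM. With the length and GC trends removed, the log2 fold change was 0.67 in Sham offspring (adjusted p = 0.0154) and 0.26 in PM offspring, where it no longer passed (adjusted p = 0.383). Without the 3 shallowest OVA libraries, which are the same 3, the value in PM offspring was 0.49 and did not pass (adjusted p = 0.151). Both alternatives were added with the data in view. The antisense gene Gm26542, which shares 268 exonic bases with Ltc4s, did not exceed 1.55 RPM.

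**Figure D2:**
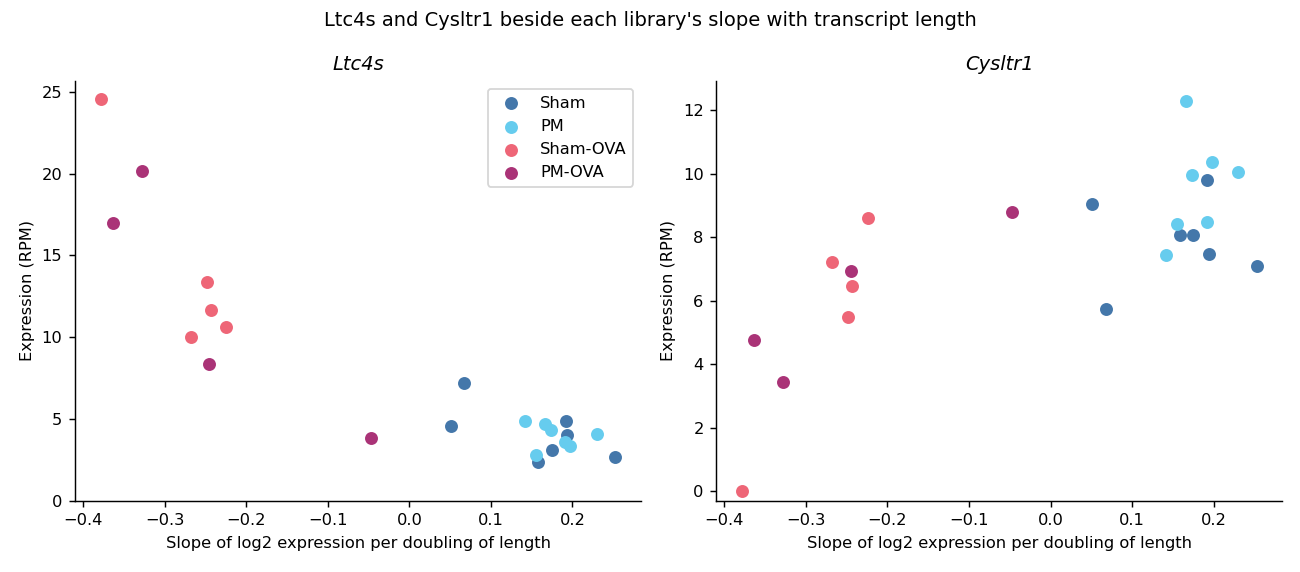
Expression in RPM of Ltc4s (left) and Cysltr1 (right) against the slope of log2 expression per doubling of transcript length in the same library; each point is 1 of 23 libraries, coloured by group. Ltc4s was highest, at 24.5 RPM, and Cysltr1 lowest, at 0 RPM, in the library with the most negative slope, Sham-OVA replicate 3.

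Cysltr1 encodes the high-affinity receptor for leukotriene D4, the target of montelukast. Its level was 7.10, 9.82, 5.73, 9.07, 8.08, 8.08 and 7.48 RPM in Sham and 8.62, 5.49, 0, 6.45 and 7.23 RPM in Sham-OVA, and the groups overlapped. In PM it was 12.3, 10.4, 8.41, 10.1, 7.45, 8.49 and 9.96 RPM, and in PM-OVA 8.80, 6.96, 4.78 and 3.45 RPM. Of the PM-OVA libraries, 3 were below all PM libraries. The log2 fold change in Sham offspring was -0.95 ± 0.56 (SE, adjusted p = 0.143 by limma) and in PM offspring -0.69 ± 0.24 (adjusted p = 0.0200). Without Sham-OVA replicate 3 the value in Sham offspring was -0.18 ± 0.17 (adjusted p = 0.369). Sham-OVA replicate 3 had 0 reads, which allows up to 0.932 RPM (3 reads, counting error only), whereas the next lowest library of its group would have given 17.7 reads at that depth. The call in PM offspring was not held by most changes of scaling: the value was -0.36 (adjusted p = 0.0992) with median-of-ratios scaling, and it turned to 0.13 (adjusted p = 0.589) with the length and GC trends removed. It was also lost without PM-OVA replicate 3 (-0.62, adjusted p = 0.0572) and without PM-OVA replicate 4 (-0.48, adjusted p = 0.0683).

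Of the other 5 leukotriene receptor genes listed, 2 were higher with OVA in both cohorts, beside 20.6% and 20.1% of all genes tested. Cysltr2, the second cysteinyl leukotriene receptor, was higher with OVA by 1.85 ± 0.39 (log2, SE) in Sham offspring and 1.59 ± 0.40 in PM offspring, with adjusted p-values of 6.99e-04 and 0.00420 by limma. Ltb4r1, the high-affinity leukotriene B4 receptor of granulocytes and effector T cells, was higher by 1.49 ± 0.24 and 1.65 ± 0.24, with adjusted p-values of 8.96e-05 and 1.47e-04 by limma, and by 0.73 and 0.86 with the length and GC trends removed. Ltb4r2, the low-affinity leukotriene B4 receptor, did not pass, at -0.31 ± 0.24 (SE, adjusted p = 0.270 by limma) and -0.26 ± 0.31 (adjusted p = 0.477), and Oxgr1 and Gpr17 were too low to be tested. The log2 ratio of Cysltr2 to Cysltr1 was -1.82 ± 0.18 (SD) in Sham and 0.97 ± 2.86 in Sham-OVA, and -2.03 ± 0.43 in PM and 0.25 ± 1.53 in PM-OVA. The ratio of 6.08 was that of Sham-OVA replicate 3, which had 0 Cysltr1 reads and the highest Cysltr2 level, 33.2 RPM. Cysltr2 was 5.19 to 6.06 RPM in the other Sham-OVA libraries. In PM-OVA replicates 1 to 4 it was 2.69, 4.95, 18.1 and 8.53 RPM, and replicate 1 lay within the PM range of 1.05 to 2.97 RPM. With the length and GC trends removed, Cysltr2 was higher by 1.71 and 1.51 (adjusted p = 0.00246 and 0.00754 by limma).

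Ptgs1 and Ptgs2 encode the constitutive and the inducible cyclooxygenase. Ptgs1 ranged from 69.3 to 99.7 RPM in Sham (median 75.4), from 63.7 to 156 in PM (median 73.5), from 67.1 to 122 in Sham-OVA (median 90.0) and from 74.1 to 95.5 in PM-OVA (median 79.6). Its log2 fold change with OVA was 0.24 ± 0.15 (SE, 95% interval -0.09 to 0.56) in Sham offspring and -0.01 ± 0.21 (-0.48 to 0.45) in PM offspring, with adjusted p-values of 0.184 and 0.959 by limma. The Sham value passed as higher under 7 of 25 alternatives. These were median-of-ratios scaling (0.60, adjusted p = 2.85e-04 by limma), quantile normalisation, array weights, DESeq2 (0.61, adjusted p = 5.32e-07) and edgeR (0.69, adjusted p = 9.27e-05). It also passed without Sham-OVA replicate 3 (0.35, adjusted p = 0.0161 by limma) and without the 3 shallowest OVA libraries. With the length and GC trends removed it was 0.12 (adjusted p = 0.498 by limma).

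Ptgs2 ranged from 12.9 to 37.4 RPM in Sham (median 19.1), from 9.98 to 53.7 in PM (median 13.7), from 10.2 to 15.2 in Sham-OVA (median 13.0) and from 8.53 to 15.003 in PM-OVA (median 10.8). PM replicates 4 (53.7 RPM) and 6 (35.1 RPM) and Sham replicates 1 (37.4 RPM), 2 (19.1 RPM), 3 (24.8 RPM) and 6 (22.95 RPM) were above all 9 OVA libraries, and the other saline libraries lay within the OVA range. The log2 fold change with OVA was -0.57 ± 0.25 (SE, 95% interval -1.10 to -0.03, adjusted p = 0.0558 by limma) in Sham offspring and -0.67 ± 0.42 (-1.57 to 0.24, adjusted p = 0.177) in PM offspring. The Sham value passed without Sham replicate 4 (-0.65, adjusted p = 0.0357), replicate 5 (-0.66, adjusted p = 0.0324) or replicate 7 (-0.64, adjusted p = 0.0393) and without Sham-OVA replicate 3 (-0.62, adjusted p = 0.0272), and it was 0.01 (adjusted p = 0.986) with the length and GC trends removed.

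Prostaglandin D2 is made in mast cells and antigen-presenting cells by Hpgds and in brain and other tissues by Ptgds. Hpgds ranged from 2.66 to 4.38 RPM in Sham (median 3.41), from 2.60 to 6.98 in PM (median 3.36), from 1.55 to 6.12 in Sham-OVA (median 3.35) and from 1.59 to 7.79 in PM-OVA (median 3.90). The OVA range was the wider one on both sides, and the log2 fold changes were -0.07 ± 0.26 (SE, 95% interval -0.61 to 0.48) and -0.08 ± 0.37 (-0.89 to 0.73), with adjusted p-values of 0.832 and 0.858 by limma. Ptgds was at the limit of detection: its highest value was 0.634 RPM, or 10 reads, in Sham replicate 4, and 9 of the 23 libraries had 0 reads. It was not tested.

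Ptgdr2 encodes CRTH2, the prostaglandin D2 receptor through which Th2 cells, eosinophils and basophils are recruited. Its level was 1.85, 1.84, 0.232, 0.761, 1.90, 1.80 and 1.15 RPM in Sham and 0, 0.226, 0, 0.398 and 0.0730 RPM in Sham-OVA. In PM it was 1.65, 1.33, 1.56, 1.98, 2.41, 1.89 and 1.42 RPM, and in PM-OVA 0.403, 0.386, 0.133 and 0 RPM. Every PM-OVA library was below every PM library, and 4 of the 5 Sham-OVA libraries were below every Sham library, the overlap resting on Sham replicate 3. Over each whole group there were 165 reads in Sham and 207 in PM against 9 in Sham-OVA and 12 in PM-OVA. A count of 0 allows up to 0.208 RPM in Sham-OVA replicate 1, 0.932 RPM in Sham-OVA replicate 3 and 0.545 RPM in PM-OVA replicate 4, so the level in the last 2 is poorly bounded. The log2 fold change was -1.47 ± 0.30 (SE) in Sham offspring and -1.65 ± 0.21 in PM offspring, with adjusted p-values of 5.76e-04 and 8.62e-05 by limma. It entered the tests through the saline libraries alone, 13 of which reached 0.5 RPM, and with no filter, among 23487 genes, the adjusted p-values were 0.00201 and 2.21e-04. With the length and GC trends removed the values were -1.83 and -2.04. Ccdc86, on the opposite strand, shares 1031 exonic bases with Ptgdr2, and its level overlapped between the groups, from 11.8 to 16.7 RPM in Sham and 12.7 to 15.2 in PM, and from 11.2 to 16.3 in Sham-OVA and 11.9 to 15.99 in PM-OVA.

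The second prostaglandin D2 receptor went the other way. Ptgdr, which encodes the cyclic AMP-coupled receptor DP1, had 4 reads in all over the Sham libraries and 4 over the PM libraries, and 2.26 to 5.21 RPM in Sham-OVA and 1.73 to 4.90 RPM in PM-OVA. Its log2 fold change was 2.86 ± 0.19 (SE) in Sham offspring and 2.498 ± 0.23 in PM offspring, and it entered the tests through the OVA libraries alone, in which it was high. With no filter, among 23487 genes, the adjusted p-values were 3.58e-07 and 4.81e-05 by limma. The log2 ratio of Ptgdr to Ptgdr2 was -1.70 ± 0.61 (SD) in Sham and 2.63 ± 0.59 in Sham-OVA, and -2.06 ± 0.30 in PM and 2.08 ± 0.91 in PM-OVA. The highest ratio without OVA was -0.55 and the lowest with OVA was 1.46. In RPM, with no division by length, Ptgdr2 was thus the higher of both in each saline library and Ptgdr in each OVA library. Gm16976, on the opposite strand, shares 705 exonic bases with Ptgdr and was not among the genes listed. Its level is therefore not known, and reads from it could be counted in Ptgdr if counting ignored strand.

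**Figure D3:**
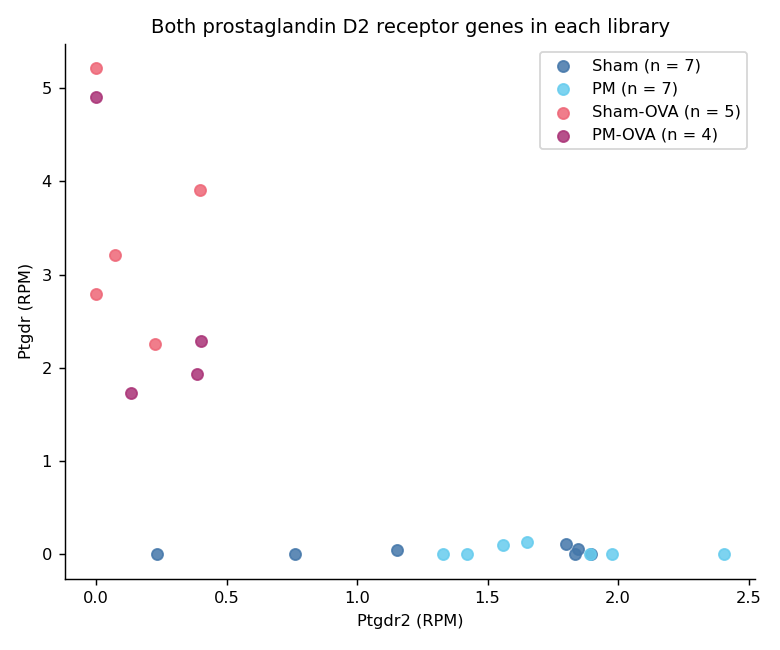
Ptgdr against Ptgdr2 expression in RPM in each of the 23 libraries. The OVA libraries have Ptgdr at 1.73 RPM or more with Ptgdr2 at 0.403 RPM or less, and the saline libraries hold the opposite corner.

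The upstream sequences of Ltc4s, which was higher with OVA, and Ptgdr2, which was lower, are shown because their transcripts moved in opposite directions in the same libraries. RefSeq upstream sequences on GRCm38.p6 were matched for 7 of the 10 members, and Alox15, Alox5ap and Cysltr1 were not matched. The bases before the annotated start that lie in no exon are given 5′ to 3′ on the strand of the gene, at chr11:50238617-50238782 (minus strand, 166 bases) and chr19:10936910-10937159 (plus strand, 250 bases). Capitals mark matches to the motifs searched on both strands.
Ltc4s: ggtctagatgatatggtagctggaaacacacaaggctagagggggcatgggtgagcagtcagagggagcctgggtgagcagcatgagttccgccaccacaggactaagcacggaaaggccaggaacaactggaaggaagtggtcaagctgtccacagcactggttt
Ptgdr2: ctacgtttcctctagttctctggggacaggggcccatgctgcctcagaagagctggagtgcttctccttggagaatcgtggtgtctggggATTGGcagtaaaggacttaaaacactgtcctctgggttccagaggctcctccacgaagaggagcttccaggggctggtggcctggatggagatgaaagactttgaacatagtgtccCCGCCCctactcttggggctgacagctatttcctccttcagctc
The motifs were the GC box of Sp-family factors, spelled GGGCGG, and the box bound by nuclear factor Y, spelled CCAAT. The binding motif of GATA-family factors was searched as AGATAA and that of activator protein 1 (AP-1) as TGANTCA, and the STAT palindrome was searched with a spacer of 4 bases. In Ptgdr2 the GC and CCAAT boxes were each found once, both on the opposite strand, and they occur in 32.7% and 33.8% of the 32851 upstream sequences of the same length. The Ltc4s sequence held none of the 5. Among the 250 upstream bases of the 7 members, the GC box was found in Alox5, Ptgdr2 and Ptgs2, the AP-1 motif (6.75% of all) in Ptgds, and neither the GATA motif (9.99%) nor the STAT palindrome (5.85%) in any. A match is a description of these letters and not of binding.

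**Figure D4:**
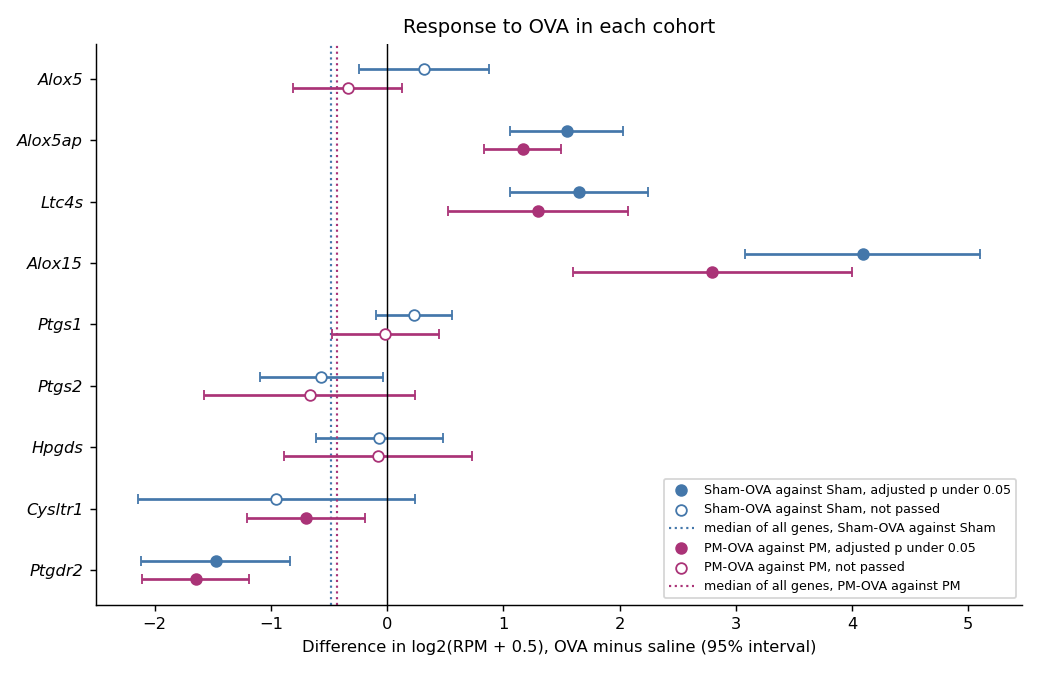
Difference in log2(RPM + 0.5) between OVA and saline libraries of each cohort for the 9 members tested, with its 95% interval (limma); filled points passed an adjusted p under 0.05, and dotted lines mark the median over all genes. Alox15, at 4.09 and 2.80, lies farthest to the right, and Ptgdr2, at -1.47 and -1.65, farthest to the left.

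Maternal PM2.5 exposure was compared within the saline and within the OVA offspring. In PM against Sham, 0 of the 9 tested members passed, beside 0% of all genes, and 1 had an unadjusted p under 0.05. That member was Alox15, which was above every Sham library in 2 of the 7 PM libraries. Its log2 fold change was 1.09 ± 0.49 (SE, 95% interval 0.05 to 2.13, adjusted p = 0.898 by limma). Cysltr1 was at 0.26 ± 0.13 (-0.01 to 0.53, adjusted p = 0.898 by limma). The remaining 7 members lay between -0.12 (Ptgs2, -0.86 to 0.63) and 0.36 (Ptgdr2, -0.15 to 0.87). DESeq2 and edgeR on the recovered reads also called 0 members.

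In PM-OVA against Sham-OVA, 0 of the 9 members passed, beside 0% of all genes, and 0 had an unadjusted p under 0.05. Alox15 was 27.4 ± 8.85 RPM (SD, n = 4) in PM-OVA and 35.8 ± 18.3 RPM (n = 5) in Sham-OVA, with a log2 difference of -0.20 (95% interval -1.34 to 0.93). Alox5ap was 77.9 ± 9.23 and 98.1 ± 34.8 RPM, with a difference of -0.27 (-0.82 to 0.27), and Ltc4s was 12.3 ± 7.55 and 14.04 ± 6.01 RPM, with a difference of -0.34 (-1.41 to 0.73). Ptgdr2 differed by 0.19 (-0.37 to 0.75). These intervals include differences of more than 0.7 on the log2 scale in at least one direction for each of the 4 genes.

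The interaction term, maternal exposure by OVA, asks whether the response to OVA differed between the cohorts. It passed for 0 of the 9 members, beside 0% of all genes, and 0 had an unadjusted p under 0.05. The interaction value of Alox15 was -1.29 ± 0.77 (log2, SE, 95% interval -2.89 to 0.30), and that of Alox5 was -0.66 ± 0.35 (-1.37 to 0.06). With array weights, which give libraries that scatter less more weight, both passed, at -2.79 (adjusted p = 0.0229) for Alox15 and -1.19 (adjusted p = 0.0167) for Alox5. In that fit 23.6% of all genes were lower and 3.88% higher, with a median of -0.32, so 2 of 9 members was close to the share over all genes. Ltc4s (-0.35, -1.31 to 0.61), Alox5ap (-0.38, -0.98 to 0.22) and Ptgdr2 (-0.17, -0.97 to 0.62) had intervals on both sides of 0.

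Levels of different genes were set side by side per kilobase of merged exons. This division does not remove each library's slope with transcript length, which differed between the saline and the OVA libraries. On this scale Alox5ap was the highest member in each group. It stood at 23.2 ± 7.08 RPM per kb (SD) in Sham and 24.4 ± 4.31 in PM, and with OVA at 69.1 ± 24.5 in Sham-OVA and 54.8 ± 6.503 in PM-OVA. Ptgs1 was next, at 20.3 ± 2.66, 22.2 ± 8.24, 24.2 ± 5.25 and 21.2 ± 2.42 RPM per kb, and in the saline groups the ranges of the 2 genes overlapped. With the longest transcript in place of merged exons, Ptgs1 came before Alox5ap in Sham (27.5 against 26.3) and PM (30.1 against 27.7).

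The middle of this order changed with OVA. Ltc4s and Alox15 have merged exons of 1014 and 2454 bases, and Ptgs2 and Alox5 of 4580 and 4106. The part of the length slope in this change was not tested. In Sham, Ptgs2 (4.50 ± 1.92 RPM per kb) and Ltc4s (4.05 ± 1.63) followed, within the spread of each other, then Alox5 (2.14 ± 0.68), Cysltr1 (1.54 ± 0.26), Alox15 (0.657 ± 0.537), Hpgds (0.537 ± 0.094), Ptgdr2 (0.515 ± 0.250) and Ptgds (0.0835 ± 0.138). In Sham-OVA, Alox15 (14.6 ± 7.44) and Ltc4s (13.8 ± 5.93) took the third and the fourth place within the spread of each other, above Ptgs2 (2.83 ± 0.401) and Alox5 (2.79 ± 1.27), which did not differ beyond their spread. In PM-OVA, Ltc4s (12.2 ± 7.45) and Alox15 (11.2 ± 3.60) held these places. Ptgdr2 moved to the last place in both OVA groups, at 0.0527 ± 0.0649 and 0.0872 ± 0.0746 RPM per kb, near Ptgds at 0.0875 ± 0.102 and 0.122 ± 0.119. The log2 ratio of Ptgs2 to Ptgs1 was -1.99 ± 0.57 (SD) in Sham and -2.79 ± 0.43 in Sham-OVA, and -2.19 ± 1.03 in PM and -2.84 ± 0.49 in PM-OVA, and its ranges overlapped between saline and OVA.

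Beyond the members, 51 other genes of eicosanoid release, synthesis, breakdown and reception were listed, and 45 of them were tested. In Sham offspring 20 were higher with OVA, 13 lower and 12 did not pass, with a median log2 fold change of 0.40 beside -0.48 over all genes, of which 20.6% were higher and 47.5% lower. In PM offspring 18 were higher, 12 lower and 15 did not pass, with a median of 0.27 beside -0.43, and 20.1% of all genes were higher and 45.2% lower. Of the genes higher, Pla2g4c, Pla2g5, Alox12e and Ptgdr entered the tests only because of the OVA libraries, so that these counts and medians are a description. In PM against Sham, in PM-OVA against Sham-OVA and in the interaction, 0 of the 45 passed. With median-of-ratios scaling the calls with OVA were 27 higher and 11 lower in Sham offspring and 26 and 10 in PM offspring, and with the length and GC trends removed they were 19 and 10, and 17 and 12.

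Of the phospholipases A2, which release arachidonic acid, 7 of 9 were tested. In Sham offspring 5 were higher and 1 lower, beside 20.6% and 47.5% of all genes. In PM offspring 4 were higher and 1 lower, beside 20.1% and 45.2%. Pla2g4c and Pla2g5, both among the higher, entered the tests only because of the OVA libraries. Pla2g5 in PM offspring passed under 11 of 23 alternatives, and with no filter its adjusted p was 0.0630 by limma. The secreted enzyme Pla2g2d was higher by 2.34 ± 0.30 (log2, SE) in Sham and 2.30 ± 0.24 in PM offspring (adjusted p = 1.01e-05 and 2.24e-05 by limma). The cytosolic enzyme Pla2g4a, the main source of arachidonic acid for these mediators, was the lower one, at -0.79 ± 0.30 and -0.63 ± 0.26 (adjusted p = 0.0295 and 0.0432 by limma). Pla2g4a passed under 16 of 25 alternatives in Sham offspring and 7 of 24 in PM offspring, and not in either with the length and GC trends removed (-0.53 and -0.35, adjusted p = 0.0889 and 0.181 by limma).

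The 10 further genes of leukotriene synthesis, export and breakdown were all tested, and 4 were higher and 1 lower in each cohort. The shares over all genes were 20.6% and 47.5% in Sham offspring and 20.1% and 45.2% in PM offspring. Cyp4f18, a leukotriene B4 hydroxylase, had the largest log2 fold change of the 45 genes in Sham offspring, 3.92 ± 0.38 (SE), and a value of 3.18 ± 0.49 in PM offspring (adjusted p = 7.64e-07 and 2.27e-04 by limma). Its level was 1.28 to 7.86 RPM in Sham and 1.47 to 7.15 in PM, but 32.6 to 104 in Sham-OVA and 15.2 to 83.3 in PM-OVA, with no overlap between OVA and saline in either cohort. The microsomal glutathione transferases Mgst2 and Mgst3, of which Mgst2 can also make leukotriene C4, were higher by 0.74 ± 0.23 and 1.63 ± 0.22 in Sham offspring and by 1.26 ± 0.21 and 1.60 ± 0.33 in PM offspring. Abcc1, the exporter of leukotriene C4, was lower by 1.36 and 1.14 (log2 fold changes -1.36 ± 0.36 and -1.14 ± 0.28, adjusted p = 0.00354 and 0.00346 by limma). With the length and GC trends removed, Mgst3 was higher by 1.04 in each cohort and Abcc1 was at -0.88 and -0.67, all past the threshold.

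Of the 7 prostanoid synthases besides the members, 5 were higher and 1 lower in Sham offspring and 4 higher and 1 lower in PM offspring. Over all genes, 20.6% were higher and 47.5% lower in Sham offspring, and 20.1% and 45.2% in PM offspring. Thromboxane synthase (Tbxas1) was higher by 1.56 ± 0.29 (log2, SE) and 1.42 ± 0.19, and prostacyclin synthase (Ptgis) by 1.27 ± 0.26 and 1.66 ± 0.31 (0.74 and 1.09 with the length and GC trends removed). Ptges, the inducible prostaglandin E synthase, was higher by 0.72 ± 0.22 in Sham offspring (adjusted p = 0.00887 by limma) and had a value of 0.32 ± 0.19 in PM offspring (adjusted p = 0.162). Cbr1, a carbonyl reductase that turns prostaglandin E2 into F2α, was the lower one, at -1.51 ± 0.37 and -0.84 ± 0.27.

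All 8 prostanoid receptors were tested, with 3 higher and 3 lower in Sham offspring and 3 higher and 2 lower in PM offspring. Beside these stood 20.6% of all genes higher and 47.5% lower in Sham offspring, and 20.1% and 45.2% in PM offspring. The receptor of prostaglandin F2α, Ptgfr, fell from 13.8 to 31.3 RPM in Sham to 1.24 to 3.90 RPM in Sham-OVA, and from 17.1 to 29.9 RPM in PM to 2.00 to 5.85 RPM in PM-OVA. Its log2 fold changes were -2.84 ± 0.26 (SE) and -2.41 ± 0.25 (adjusted p = 5.41e-07 and 1.99e-05 by limma), and the value in PM offspring was -1.58 with the length and GC trends removed. The prostaglandin E2 receptor Ptger4 was higher, at 0.79 ± 0.18 and 0.84 ± 0.19, and Ptger1 lower, at -1.04 ± 0.18 and -1.12 ± 0.36.

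The 4 genes of prostaglandin transport and breakdown were all lower in both cohorts, beside 47.5% and 45.2% of all genes. Hpgd, the 15-hydroxyprostaglandin dehydrogenase that starts the inactivation of prostaglandins, was 290.2 to 516 RPM in Sham and 12.1 to 146 in Sham-OVA, with a log2 fold change of -2.74 ± 0.44 (SE, adjusted p = 7.60e-05 by limma). In PM it was 78.0 to 553 RPM and in PM-OVA 42.1 to 167, overlapping through the lowest PM library, with -2.26 ± 0.51 (adjusted p = 0.00200). Ptgr2, which acts on the next intermediate, was -1.79 ± 0.21 and -2.22 ± 0.46 (adjusted p = 4.01e-06 and 0.00122 by limma). The uptake carrier Slco2a1 was -0.77 ± 0.16 and -0.50 ± 0.20, and the exporter Abcc4 -1.07 ± 0.31 and -0.99 ± 0.23. With the length and GC trends removed, Slco2a1 passed in neither cohort (-0.32 and -0.07, adjusted p = 0.0742 and 0.749 by limma) and Abcc4 did not pass in Sham offspring (-0.62, adjusted p = 0.0723), whereas Hpgd and Ptgr2 passed in both. Slco2a1 in PM offspring passed under 8 of 24 alternatives.

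**Figure D5:**
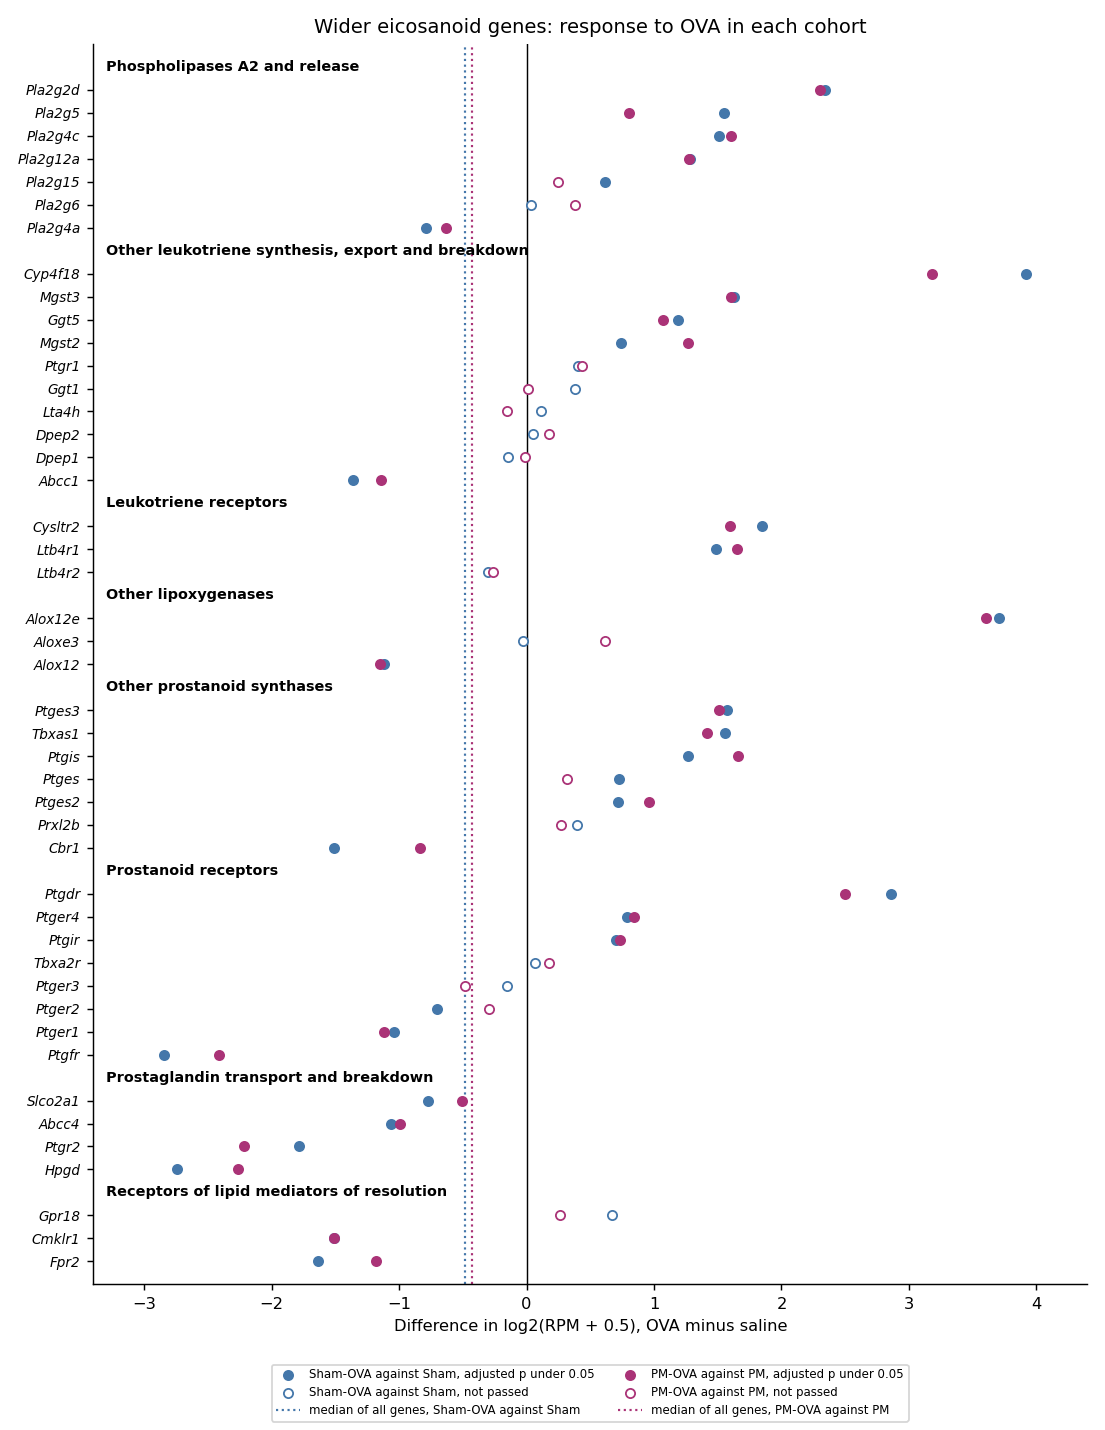
Difference in log2(RPM + 0.5) between OVA and saline libraries of each cohort for the 45 wider pathway genes tested, grouped by role and ordered within a role by the value in Sham offspring; filled points passed an adjusted p under 0.05, and dotted lines mark the median over all genes. The points run from -2.84 (Ptgfr) to 3.92 (Cyp4f18), and the 4 genes of prostaglandin transport and breakdown lie left of 0 in both cohorts.

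Markers of cells that make or respond to these mediators moved with OVA too. The summed level of the 8 eosinophil markers was 3.66 to 14.01 RPM in Sham and 4.99 to 15.8 in PM, against 19.6 to 48.3 in Sham-OVA and 20.9 to 29.6 in PM-OVA. Of its defining granule genes, Epx was at 0 in all saline libraries and averaged 1.94 RPM in Sham-OVA and 1.08 in PM-OVA, Prg2 averaged 0.0656 and 0.0902 RPM in Sham and PM and 9.21 and 7.17 with OVA, and Ear1 was at 0 in all OVA libraries. Siglecf, which eosinophils share with alveolar macrophages and which had the highest level of the list without OVA, averaged 7.89 and 8.55 RPM in Sham and PM and 3.76 and 3.22 in Sham-OVA and PM-OVA. The 7 interstitial macrophage markers summed to 118 to 339 RPM over the saline libraries and 1360 to 2384 RPM over the OVA libraries. The 7 markers of Th2 cells and type 2 innate lymphoid cells, which carry Ptgdr2, summed to 16.9 to 41.4 RPM without OVA and to 58.4 to 124 RPM with it. Most of this sum was Gata3 and Il1rl1. Gata3 averaged 11.6 and 12.8 RPM in Sham and PM, and 49.0 and 40.1 in Sham-OVA and PM-OVA. Il1rl1 averaged 11.4 and 11.7 RPM, then 34.3 and 24.8. Il4, Il5, Il13 and Il17rb were also higher on average with OVA, whereas Areg (1.49 and 2.69 RPM, then 0.694 and 0.946) was lower. The part of these cells in the lower Ptgdr2 level was not tested.

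The 9 mast cell and basophil markers summed to 101 to 381 RPM over the saline libraries and to 36.0 to 205 RPM over the OVA libraries. Kit, which averaged 253 and 278 RPM in Sham and PM and 82.0 and 90.9 in Sham-OVA and PM-OVA, made up most of this sum, whereas the mast cell protease gene Cpa3 averaged 0.596 and 0.701 RPM without OVA and 3.98 and 1.88 with it. Also higher on average with OVA were Tpsb2 (0.782 and 1.11 RPM, then 5.52 and 3.03) and Tpsab1 (0.131 and 0.303, then 2.93 and 1.76). The basophil gene Mcpt8 averaged 0.302 and 0.217 RPM in Sham and PM, and 14.3 and 0.838 in Sham-OVA and PM-OVA. The mast cell gene Cma1 averaged 0.574 and 0.951 RPM without OVA and 0.441 and 0.426 with it, and Mcpt4, Fcer1a and Ms4a2 were higher on average in Sham-OVA than in Sham but lower in PM-OVA than in PM. The alveolar macrophage sum was 155 to 383 RPM without OVA and 311 to 744 with it. Most of it was Car4, also a marker of capillary endothelium, which averaged 208 and 198 RPM in Sham and PM and 419 and 470.2 in Sham-OVA and PM-OVA. Marco (2.76 and 2.95 RPM, then 0.234 and 0.424), Pparg and Plet1 were lower on average with OVA. Chil3 (0.627 and 0.529 RPM, then 29.6 and 30.3), Cd5l (0.593 and 1.08, then 6.31 and 4.25) and Atp6v0d2 (27.2 and 28.0, then 42.7 and 41.2) were higher. Krt79 was lower in Sham-OVA than in Sham but higher in PM-OVA than in PM. The neutrophil sum overlapped, at 56.0 to 669 and 117 to 725 RPM. Within it Retnlg (8.79 and 11.2 RPM, then 132 and 102) and Ly6g were higher on average with OVA. Cxcr2 (14.7 and 17.0 RPM, then 2.89 and 2.18), Csf3r and S100a8 were lower, and S100a9 was higher in Sham-OVA but lower in PM-OVA. The lung epithelial markers were present in every library, at 23509 to 64511 RPM, and those of capillary endothelium at 875 to 3411 RPM. Of the endothelial list, Kdr (483 and 532 RPM, then 173 and 206), Tek and Ednrb were lower on average with OVA. Gpihbp1, Plvap and Car4 were higher. Platelet (16.1 to 78.9 RPM), mesothelial (197 to 894) and cardiac muscle (27.2 to 247) sums overlapped between all groups. Within each of these sums, some markers were higher on average with OVA and others lower. The part of these cells in the results above was not tested.

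The genes whose levels varied most like each member across the 23 libraries, after the group means were removed, are given as a description (Pearson's r, n = 23 libraries that share depth and length slope). For Alox15 they were F5 (0.87) and Timd4 (0.82), for Alox5ap Il1rn (0.88) and Pla2g7 (0.87), and for Alox5 Apobr (0.88) and Emilin2 (0.86). For Ptgs2 they were the immediate early genes Egr1 (0.75) and Nr4a1 (0.75), and for Ptgs1 Lztr1 (0.88) and Lhx6 (0.88). Ltc4s varied with Pdlim4 (0.94) and Hmces (0.94), Hpgds with Cpped1 (0.91) and Abhd17c (0.90), Cysltr1 with Arl16 (0.98) and Acad11 (0.97), and Ptgdr2 with Gm11476 (0.88) and Slc43a2 (0.81).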

How the data were processed

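According to the labels and the study's methods, polyA RNA was extracted and prepared with the Illumina Stranded mRNA kit. Trimmomatic 0.39 was used by the authors to trim the single-end reads and Bowtie2 2.5.1 to align them to GRCm38 (mm10), which does not split reads at splice junctions. SAMtools 1.17 handled the alignments and SeqMonk 1.48.1 quantified genes. Whether the counting used strand is not given in the sources used here, so overlapping antisense genes are named beside the members. The deposited values carry the name RPKM, but the authors' table holds RPM, with no division by length, and 1 read is worth the same for every gene. In each library 100% of values were whole multiples of 1 read within a tolerance that starts at 0.01 and grows with the count. At the highest counts this tolerance passes any value, so the check rests on the lower counts. The table lists 35322 genes, Ptp4a1 2 times.

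Samples were grouped by their titles. Values were tested as log2(RPM + 0.5) in limma 3.58.1 (R 4.3.3) with its mean-variance trend. Genes entered the tests when 4 or more of the 23 libraries reached 0.5 RPM, which left 16795, and p-values were adjusted over them by the Benjamini-Hochberg method. Each comparison was fitted on its own groups and the interaction on all 4. DESeq2 1.42.0 and edgeR 4.0.16 were run on recovered reads as alternatives, beside other pseudocounts, filters, scalings, fits and left-out libraries. Fold changes on this scale understate the change of low genes. Reads per library ranged from 2298645 to 17393579, and 1 read from 0.0502 to 0.311 RPM, which sets the precision of low genes. Limits from a count of 0 use 3 reads and cover counting error only.

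Lengths, positions and overlaps came from the GENCODE annotation of GRCm38, the build of the files, and upstream sequences from RefSeq (GRCm38.p6). All members were named. Of the wider list, genes that passed the stricter threshold with OVA and the 3 largest and 3 smallest log2 fold changes in Sham offspring were named by rule, as were the 2 genes varying most like each member. Further genes of the wider list, the marker genes, the overlapping genes and the Xist and Eif2s3y levels were named after their values were seen. The members, lists and tests were chosen with earlier results of these data known. The fits were tested on simulated data. DNA methylation was not analysed here.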

Additional observations from a re-analysis of the deposited data

Results flagged for a closer look

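Of 36 sets of libraries (9 tested members in 4 groups), 2 held a library far from the others by Dixon's test, and chance flags about 1 set in 20. Ptgs1 stood at 156.459 RPM in PM replicate 5, with the next highest PM library at 88.4 RPM. Cysltr1 stood at 0 RPM in Sham-OVA replicate 3, with the next lowest Sham-OVA library at 5.49 RPM. Sham-OVA replicate 3 was the shallowest library, with 2298645 reads, and had the most negative slope of expression with transcript length (-0.38).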

How the results depend on the processing

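Alox15, Alox5ap and Ptgdr2 passed with the same direction under all 25 alternatives in Sham offspring and all 24 in PM offspring. Their log2 fold changes ranged from 3.74 to 4.93, 0.92 to 2.01 and -2.83 to -0.94 in Sham offspring and from 2.14 to 3.23, 0.55 to 1.60 and -2.73 to -1.16 in PM offspring. Ltc4s passed under all 25 in Sham offspring (0.67 to 2.26) and under 22 of 24 in PM offspring (0.26 to 2.17). Cysltr1 in PM offspring passed under 14 of 24 and reversed, to 0.13, with the length and GC trends removed. Over all member values and alternatives, 87 of 1188 changed sign, of which 1 had passed.

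The count of members higher in Sham-OVA against Sham was 5 under median-of-ratios scaling, quantile normalisation, array weights, DESeq2 and edgeR, with Alox5 and Ptgs1 added, and 3 to 4 with 1 library left out. The same 5 settings called 4517 to 5584 of all 16795 genes higher, compared with 3453 in the main fit. The count lower was 2 with array weights and without the 3 shallowest OVA libraries, and 1 to 2 with 1 library left out. Over all genes, 8291 were lower with array weights and 7925 without the 3 shallowest, compared with 7978 in the main fit. In PM-OVA against PM the count higher was 3 with any 1 library left out, and the count lower was 1 to 3. The count lower was 1 under median-of-ratios scaling, quantile normalisation, all 4 groups in one fit, DESeq2, edgeR, the 3 shallowest OVA libraries left out and the length and GC trends removed. Those settings called 5095 to 7539 of all genes tested lower, compared with 7589 in the main fit. With the stricter threshold all 4 counts were 0 in the main limma fit. In Sham offspring, limma called Alox5ap and Alox15 higher with median-of-ratios scaling, quantile normalisation, array weights and all 4 groups in one fit. It also called both without Sham-OVA replicate 3 and without the 3 shallowest OVA libraries, and edgeR called the same 2. These fits called 632 to 1459 of all 16795 genes higher by that rule. DESeq2 gave 3 members higher in Sham offspring and 1 in PM offspring. The interaction gave 2 members lower with array weights, beside 3 higher and 5 lower of the 45 wider pathway genes and 651 higher and 3965 lower of all 16795 genes. Of that wider list, 7 were lower in PM-OVA against PM without the 3 shallowest OVA libraries, compared with 12 in all libraries, and 8 to 12 with 1 library left out. Over all genes, 5258 were lower without these 3 libraries, compared with 7589. Quantile normalisation called 28 of the wider list higher and 11 lower in Sham offspring and 27 and 8 in PM offspring. Over all 16795 genes it called 5484 higher and 5812 lower in Sham offspring and 5288 and 5445 in PM offspring. Over all genes the replicate block moved the calls in PM-OVA against PM from 3379 higher and 7589 lower to 2288 and 5694.

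With the replicate number as a replicate block, the count lower in PM-OVA against PM was 1, since Cysltr1 was lost (-0.80, adjusted p = 0.0590). The deviations of same-numbered libraries correlated from -0.31 to 0.62 over the 4 comparisons of groups, and in each comparison at least 1 pair was not above 0.1. In PM-OVA against Sham-OVA the correlations were 0.60, 0.22, 0.62 and -0.31 for replicates 1 to 4. Such correlations cannot show whether libraries share a litter or a batch, so whether the numbers pair the samples is not known. With the longest transcript in place of merged exons, Alox5ap swapped per-kilobase places with Ptgs1, Ptgs2 with Ltc4s and Alox15 with Hpgds in Sham. Depth limits the values of Ptgdr2, Ptgds and Cysltr1 in the 3 shallowest OVA libraries.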
